A study of Mus musculus with 12 samples.

Results

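Deletion of Foxd3 in mouse embryonic stem cells grown in serum plus leukemia inhibitory factor (LIF) was examined in 4 RNA-seq libraries, 2 labelled Foxd3-/- and 2 labelled Foxd3fl/fl. The genes described are the 12024 of 19996 in the table of this comparison that had a mean of at least 1 FPKM (fragments normalized for transcript length and library size) in either group, and the 4 libraries are part of 12 in the series. All 4 came from Foxd3fl/fl;Cre-ER cells, whose Foxd3 alleles are flanked by recombination sites and which carry a Cre recombinase that tamoxifen switches on. The deleted group received 4-hydroxytamoxifen at 2 µM for 3 days, and the floxed group was left untreated. Both grew with serum and LIF (SL) on irradiated mouse embryonic fibroblasts, so fibroblast RNA can be part of every SL library. The drug and an active Cre go with the deleted group alone, so their effects and that of losing Foxd3 cannot be told apart. For comparison, values are also given for the same cells in 2i (LIF with inhibitors of MEK and GSK3, groups again named Foxd3-/- and Foxd3fl/fl by their labels) and for a tetON Foxd3 line, which expresses Foxd3 under doxycycline, against wild-type LF2 cells (WT), both given doxycycline for 3 days in serum plus LIF without feeders.

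Foxd3 is a forkhead transcription factor of the pluripotent epiblast and, later, of the neural crest. In embryonic stem cells it binds enhancers and is known both to open them and to hold them back, in part through the LSD1 and NuRD complexes that remove active histone marks. Embryos without it lose the epiblast. Serum plus LIF keeps a mixed population in which cells move between naive and more advanced states.

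The labelled cell type was borne out by its markers: Pou5f1 measured 480 to 581 FPKM, Sox2 111 to 126 FPKM and Zfp42 122 to 182 FPKM over the 4 SL libraries. Between 11605 and 11919 genes per library reached 1 FPKM. The depth of single libraries is unknown. In the authors' deposited table the group mean reads summed to 53193753 in the deleted and 54096080.4 in the floxed group. Whether the 2 replicates of a group were separate cultures is not stated, and the p-values then reflect the spread of these 4 libraries alone, which may be technical.

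Foxd3 itself was lower in both deleted libraries but was still detected. Foxd3 (ENSMUSG00000067261, GRCm38 chromosome 4, 99656299 to 99658622, plus strand, a gene of 1 exon) measured 1.62 and 1.83 FPKM after deletion and 4.53 and 4.81 FPKM without it. The groups did not overlap. The difference on the log2(FPKM + 1) scale was -1.06 (SE 0.15, 95% interval -1.42 to -0.70), with a limma adjusted p of 0.137 against a threshold of 0.05. When each library was left out in turn, the difference stayed between -1.12 and -1.00015. Each of these fits leaves 1 library in a group, so their p-values are not given. In the authors' deposited table Foxd3 had 359 mean reads in the deleted and 681 in the floxed group, a fold of -1.9, with an adjusted p of 0.16. The sources used here do not give the segment that is removed, and reads from what remains may count toward Foxd3.

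Over the 12024 genes, more were called higher than lower after deletion. By the authors' deposited p-values, adjusted here by Benjamini and Hochberg over the whole table, 76 genes rose (0.632% of those tested) and 19 fell (0.158%). Their groups did not overlap in FPKM in any of these 95 genes, against 2371 genes apart and higher (19.7%) and 2081 apart and lower (17.3%) over all genes. Limma's test on the 4 FPKM columns alone called 1 gene higher (0.00832%) and 0 lower (0%). At an unadjusted limma p under 0.05 there were 730 higher (6.07%) and 367 lower (3.05%), and these held all 95 genes of the authors' calls. Limma adjusted p-values of the 95 ran from 0.0873 to 0.462. The limma count was 74 without SL deleted replicate 1, 313 without SL deleted replicate 2 and 12 without SL floxed replicate 2. Another 12 rows that the authors' p called lay below the FPKM minimum. The single limma call was Peg10, an imprinted gene of placenta, listed at 102 and 82.1 FPKM after deletion and at 0 in either floxed library. In the authors' deposited table Peg10 had a fold of 1.65 and an adjusted p of 0.17, so the listed 0 is treated as a failed estimate. In what follows "rose" and "fell" refer to the authors' p as adjusted here, and log2 differences with SE come from limma.

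**Figure D1:**
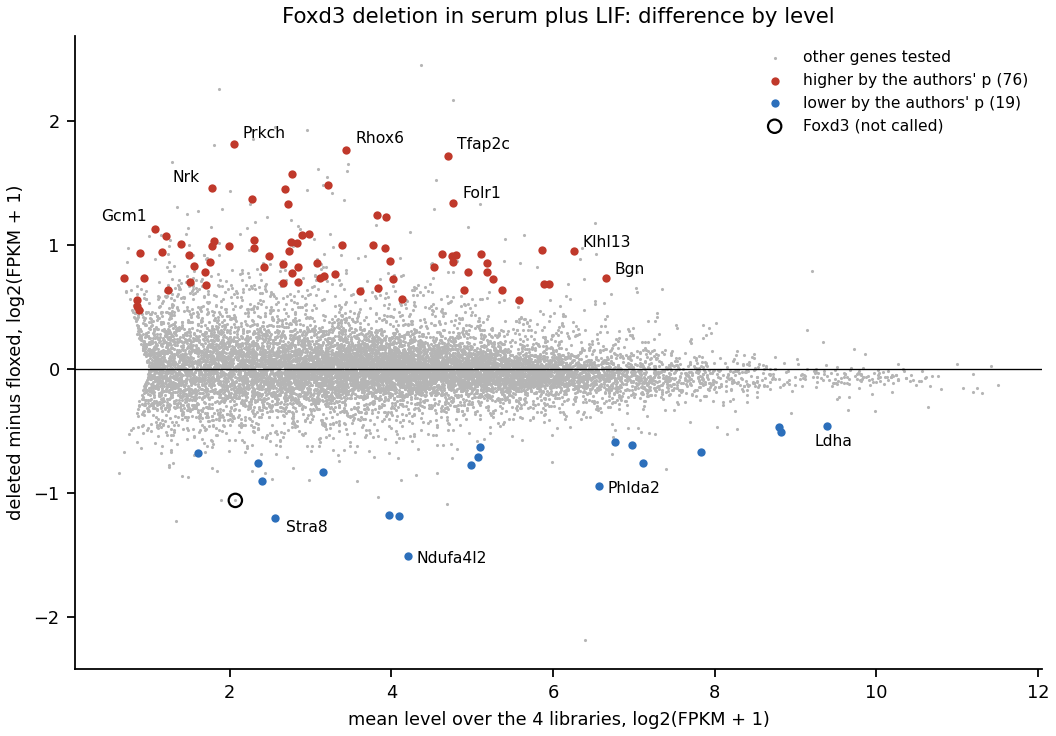
Difference between the deleted and floxed groups on the log2(FPKM + 1) scale (vertical) against the mean level over the 4 SL libraries (horizontal, log2 of FPKM + 1), with 1 point per tested gene and Peg10 left out because its floxed values are failed estimates. Red points are the 76 genes higher and blue points the 19 genes lower by the authors' p, and the ring is Foxd3, at -1.06 and not called. The rises span low and high levels, and the falls at the highest levels, such as Ldha, are smaller in size.

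The 76 rises comprised 73 single genes, 1 gene model and 2 rows that join several symbols. Their ratio of mean FPKM, deleted over floxed, ran from 1.49 to 6.69 with a median of 2.15. In 14 of the 76 the floxed mean was under 1 FPKM, so these entered the test through the deleted group alone. The 19 falls were all single genes, with ratios from 0.329 to 0.728 and a median of 0.577. Large FPKM differences also occurred outside the calls: Snapc4 was listed at 0 in floxed replicate 1 beside 24.8 FPKM in floxed replicate 2, and Txnrd3 at 238 and 46.7 FPKM in floxed against 31.4 and 16.1 FPKM in deleted libraries. Both were chosen after their values were seen, as the extremes of the plot of difference by level, and the authors' deposited table gives them folds of -1.06 and -1.07.

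The promoters of the rises with the largest deposited folds are shown. The 3 largest whose entry in the RefSeq promoter table (GRCm38.p6) holds bases before the gene start of GENCODE M21 were Gcm1, Olig3 and Nrk. Il17re, with a fold of 5.28 in the authors' deposited table above that of Nrk (4.96), has an entry with 0 such bases and is not shown. The bases that precede each gene's annotated start are given 5′ to 3′ on the plus strand, at chr9:78051708-78051923, chr10:19356289-19356532 and chrX:138914180-138914429. Capitals mark matches, on either strand, to the forkhead-type motifs TGTTTAC and TTTGTTT or to the AP-2 motif GCCNNNGGC, searched because Foxd3 is a forkhead protein and Tfap2c an AP-2 factor.
Gcm1: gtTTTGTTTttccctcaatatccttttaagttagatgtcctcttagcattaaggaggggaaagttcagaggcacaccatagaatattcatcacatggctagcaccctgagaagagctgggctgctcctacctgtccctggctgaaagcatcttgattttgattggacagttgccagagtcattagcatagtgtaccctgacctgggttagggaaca
Olig3: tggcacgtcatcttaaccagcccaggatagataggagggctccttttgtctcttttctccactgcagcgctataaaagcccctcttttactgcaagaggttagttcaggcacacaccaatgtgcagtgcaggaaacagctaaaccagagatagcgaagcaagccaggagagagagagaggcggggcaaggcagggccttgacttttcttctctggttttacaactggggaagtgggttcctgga
Nrk: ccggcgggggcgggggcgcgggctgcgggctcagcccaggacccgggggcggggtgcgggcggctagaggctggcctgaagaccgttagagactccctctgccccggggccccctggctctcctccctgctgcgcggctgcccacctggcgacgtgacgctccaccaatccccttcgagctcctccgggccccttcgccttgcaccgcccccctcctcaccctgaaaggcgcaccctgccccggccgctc
Gcm1 held 1 match to TTTGTTT, and the other motifs had 0 matches in the 3 windows. Among 32851 RefSeq promoters, 3.17% held TGTTTAC, 8.74% TTTGTTT and 13.7% GCCNNNGGC within 250 bases before the start. The Nrk window was 76.4% G or C with 24 CG pairs, the Olig3 window 51.2% with 4 and the Gcm1 window 45.4% with 0, beside a median of 52.4% G or C over all promoters. The 3 windows thus differed in base composition. A motif count over all called genes was not made, because 53 of the 73 single genes that rose had an entry.

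Regulators of trophoblast and placenta were among the strongest rises. Gcm1, the transcription factor that drives formation of the syncytial trophoblast layer, measured 2.16 and 1.61 FPKM after deletion and 0.297 and 0.333 FPKM in floxed cells. Nrk, an X-linked kinase of placental spongiotrophoblast, measured 3.85 and 4.23 against 0.723 and 0.95 FPKM. Hand1, needed for trophoblast giant cells and for heart mesoderm, measured 2.33 and 2.68 against 0.607 and 0.88 FPKM. Gcm1, Nrk and Hand1 each had a floxed mean under 1 FPKM and so entered the test through the deleted group alone. Tfap2c, an AP-2 transcription factor of trophoblast and of primordial germ cells, stood at a much higher level, with 45 and 32.8 FPKM after deletion and 11.3 and 10.6 FPKM in floxed cells (log2 difference 1.72, SE 0.17). In the authors' deposited table the folds were 7.11 for Gcm1, 4.96 for Nrk, 3.46 for Hand1 and 3.6 for Tfap2c.

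The wider trophoblast list did not move as one. Of its 30 genes 20 were tested, 17 of them with a positive difference. Of these 20, 13 were apart and higher and 1 apart and lower, beside 19.7% and 17.3% of all genes tested. Those shares are the background for the later lists too. The median of the 20 tested genes was 0.47, beside -0.01 for all genes tested. Without SL floxed replicate 1 that median was 0.64, and without SL deleted replicate 1 it was 0.37. In 6 of the 20 the floxed mean was under 1 FPKM, so the median leans toward rises by the way genes were admitted. These counts include Peg10, whose floxed values are failed estimates. Without it 19 genes were tested, 16 with a positive difference, 12 apart and higher and 5 with a floxed mean under 1 FPKM, and the median was 0.39. The authors' p called 4 members higher, those named above, and 1 lower. The gene that fell was Phlda2, an imprinted gene that restrains placental growth, at 65.7 and 61.8 FPKM after deletion and 134 and 114 FPKM in floxed cells. Cdx2 and Elf5, defining factors of trophoblast stem cells, stayed low and were not tested. Cdx2 measured 1.01 and 0.861 FPKM after deletion against 0.931 and 0.594 FPKM, and its groups overlapped. Elf5 was apart and higher, at 0.355 and 0.113 against 0 and 0.069 FPKM. Eomes, another of those factors, measured 2.53 and 1.53 against 3.99 and 1.94 FPKM, and its groups overlapped. The marker Gata3, also not tested, was apart and higher, at 0.691 and 0.486 against 0.208 and 0.238 FPKM.

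Primordial germ cell genes were mostly higher. Of 14 tested members of 15, 13 had a positive difference and 11 were apart and higher, with a median of 0.42 (0.32 to 0.53 when each library was left out in turn). In 1 of the 14, Nanos3, the floxed mean was under 1 FPKM, so it entered the test through the deleted group alone. Tfap2c and Sox15 rose. Sox15, a SOX factor of early germ cells and of trophoblast, measured 37.8 and 30.7 FPKM against 18.2 and 17 FPKM. Nanos3, an RNA-binding protein that protects germ cell precursors, measured 5.99 and 2.93 against 0.613 and 0.39 FPKM but was not called (limma adjusted p = 0.149), and its deleted libraries differed from each other. Prdm14, which helps set up both germ cell fate and naive pluripotency, measured 6.27 and 4.22 against 2.3 and 2.02 FPKM. Prdm1, the founding regulator of the lineage, measured 2.61 and 3.4 against 1.61 and 2.49 FPKM. Neither Prdm14 nor Prdm1 was called, although in both the groups did not overlap.

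Genes of later germ cells leaned the other way. Of 25 tested germline, meiosis and piRNA genes 20 had a negative difference and 9 were apart and lower, with a median of -0.13. Stra8, the retinoic acid-induced gene that starts meiosis, fell, from 6.87 and 7.51 FPKM in floxed to 2.7 and 2.42 FPKM in deleted libraries (log2 difference -1.20, SE 0.14). Mael, a piRNA pathway protein, measured 6.73 and 7.89 FPKM in deleted against 12 FPKM in each floxed library, and Sycp3, a component of the meiotic chromosome axis, 21.3 and 30.8 against 40 and 37.8 FPKM. The helicase gene Ddx4 measured 5.75 and 7.32 against 8.47 and 10.1 FPKM. These 3 were not called.

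The X-linked Rhox homeobox genes, active in placenta and germ cells, were also higher. All 5 tested members of the 14 written had a positive difference, with a median of 0.64, and 4 were apart and higher. In 1 of the 5 the floxed mean was under 1 FPKM, so it entered the test through the deleted group alone. Rhox6 rose, with 18.6 and 13 FPKM after deletion and 4.53 and 3.28 FPKM in floxed cells. Its close relative Rhox9 measured 14.3 and 9.3 against 4.09 and 2.33 FPKM and was not called, and reads may be shared between the pair. Rhox5, the most abundant member, measured 230.4 and 165 against 144 and 107 FPKM. Without SL deleted replicate 1 the median of the list was 0.40, and without SL floxed replicate 2 it was 0.44.

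The other large rises came from genes of varied function. Prkch, a protein kinase C, measured 6.52 and 4.38 FPKM after deletion and 0.685 and 0.943 FPKM in floxed cells (log2 difference 1.81, SE 0.21). Slc40a1, the iron exporter ferroportin, measured 8.24 and 8.52 against 2.55 and 2.3 FPKM, and the iodide transporter gene Slc5a5 8.49 and 8.43 against 2.61 and 2.93 FPKM. Folr1, a folate receptor, measured 41.3 and 34.7 against 14.5 and 14.1 FPKM. In Slc40a1, Slc5a5 and Folr1 the libraries of a group lay close together and the groups far apart. The secreted protease gene Htra1 measured 22.2 and 18.5 against 8.17 and 8.04 FPKM. Ddr2, a receptor for collagen, measured 2.78 and 2.6 against 0.832 and 1.07 FPKM. Il17re, an interleukin receptor subunit, measured 1.06 and 0.971 against 0.228 and 0.191 FPKM. The imprinted gene Peg12 measured 3.36 and 3.76 against 1.26 and 1.32 FPKM, and Zbtb10, a zinc finger protein, 14.2 and 11.2 against 3.72 and 4 FPKM. Also among the 30 largest rises of single genes were Urgcp, Limch1, a regulator of nonmuscle myosin, Slc35g2, Rasgef1a, Arhgef26, the ubiquitin ligase gene Hecw2, Kndc1, the clotting factor gene F5, the adhesion gene Kirrel, the membrane repair gene Dysf, Rab3il1 and the metalloprotease gene Mep1b. A further one is listed under a date-like symbol that GENCODE M21 gives as Sept4, a septin.

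**Figure D2:**
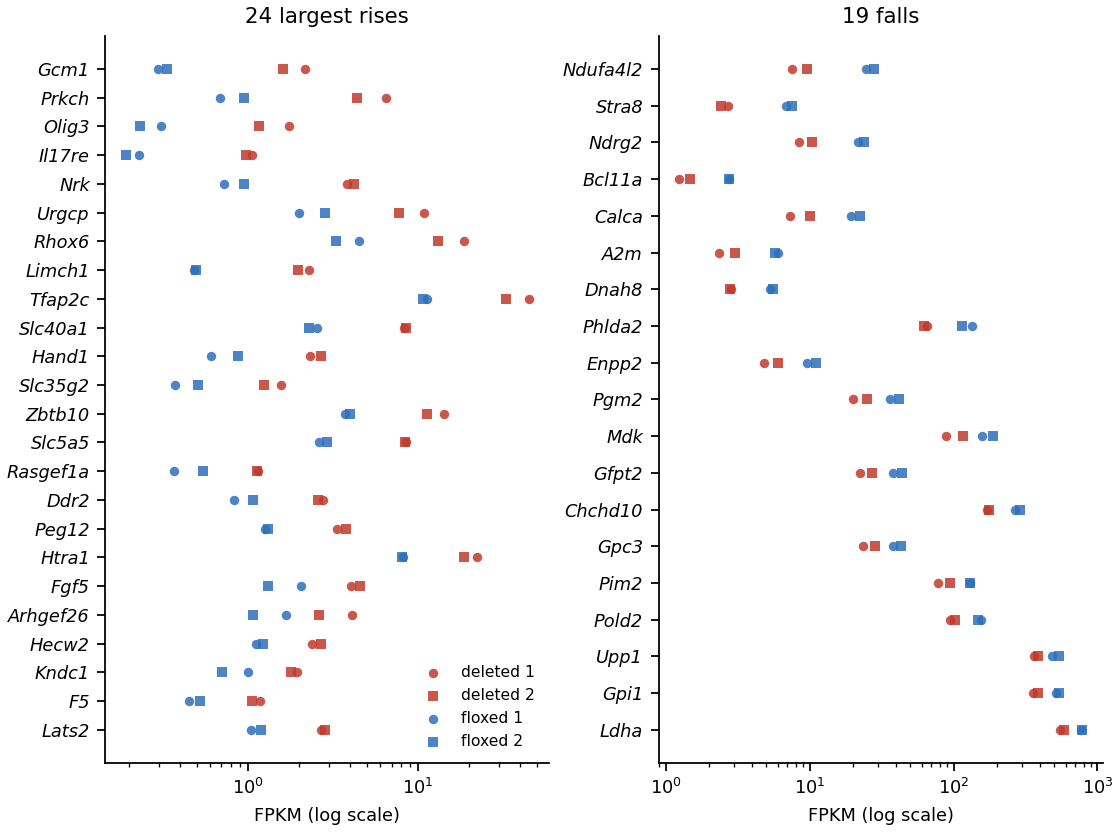
FPKM (log scale) in each of the 4 SL libraries for 24 of the largest rises (left) and all 19 falls (right), ordered by the deposited fold, with red for deleted and blue for floxed, circles for replicate 1 and squares for replicate 2. In every row both red marks lie on the same side of both blue marks, and many of the strongest rises, such as Gcm1 and Olig3, lie below 1 FPKM in the floxed libraries.

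Neural genes were mostly lower, with an exception among the strongest rises. Olig3, a basic helix-loop-helix factor of the dorsal neural tube, rose, with 1.74 and 1.16 FPKM after deletion and 0.308 and 0.232 FPKM in floxed cells. Of the 12 tested neural progenitor genes, however, 9 had a negative difference, 6 were apart and lower, and the median was -0.33 (-0.20 without SL deleted replicate 1 and -0.18 without SL floxed replicate 2). Ndrg2, a differentiation-associated gene of brain, fell from 21.5 and 23.8 FPKM to 8.44 and 10.4 FPKM. Bcl11a, a zinc finger repressor of neurons and blood cells, fell from 2.77 and 2.73 FPKM to 1.23 and 1.46 FPKM. Nes, the progenitor filament nestin, measured 24 and 28.2 FPKM in deleted against 31.7 and 34.1 FPKM in floxed libraries and was not called.

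The Hippo pathway gave 3 rises among its 13 listed genes. Tead1, the DNA-binding partner of YAP, measured 35.5 and 32.7 against 19.9 and 16.7 FPKM, and Lats2, the kinase that restrains YAP, 2.71 and 2.86 against 1.05 and 1.2 FPKM. Axl, a receptor tyrosine kinase, measured 9.32 and 11 against 4.73 and 6.67 FPKM. Secreted targets stood closer together, with Ctgf at 67.9 and 70.7 against 59 FPKM in each floxed library and Cyr61 at 53.1 and 52.4 against 39.6 and 41.2 FPKM. Both were apart and higher without a call, and the median of the list was 0.23 (0.35 without SL deleted replicate 1 and 0.39 without SL floxed replicate 2).

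Stress genes of the Gadd45 family rose in part. Gadd45a measured 46.9 and 43.1 against 29.1 and 22.7 FPKM and Gadd45b 32.7 and 30.1 against 17.8 and 14.3 FPKM, both called. Gadd45g measured 9.16 and 11.2 against 4.48 and 6 FPKM and was not. These genes encode small proteins induced by DNA damage and stress. Other p53 targets leaned higher by small differences, with 0 called. Of 21 tested, 17 had a positive difference, 11 were apart and higher and 1 was apart and lower. Their median was 0.22 (0.21 to 0.26 when each library was left out in turn). In 2 of the 21 the floxed mean was under 1 FPKM, so these entered the test through the deleted group alone. Cdkn1a, the cell cycle inhibitor p21, measured 65 and 60.9 against 53.8 and 54.2 FPKM, and Perp, an epithelial adhesion protein, 23.5 and 18.2 against 13.3 and 10.6 FPKM.

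Among signalling genes, Fgf5 and Dusp4 rose while Fgf4 did not share their direction. Fgf5, a growth factor made by primed epiblast cells, measured 4.03 and 4.56 FPKM after deletion and 2.05 and 1.31 FPKM in floxed cells. Outside SL, Fgf5 stayed under 0.5 FPKM in all 8 libraries. Dusp4, a phosphatase that ERK induces and that switches ERK off, measured 20.3 and 17.9 against 10.7 and 7.82 FPKM. Fgf4, the autocrine growth factor of naive cells, measured 16.3 and 19.06 against 25 and 26.8 FPKM, apart and lower but not called. Over the 20 genes of the FGF and ERK list 7 were apart and higher and 4 apart and lower, beside 19.7% and 17.3% of all genes tested. The median of the list was 0.12. Without SL deleted replicate 1 that median was 0.04. Members of the BMP list were higher without a call: Bmp4, a ligand, measured 21.8 and 9.81 against 5.99 and 2.57 FPKM, the inhibitor Grem1 10.4 and 7.66 against 4.03 and 3.11 FPKM, and the inhibitory Smad6 3.28 and 2.47 against 1.19 and 1.53 FPKM. Grem1 stayed under 0.5 FPKM in each of the 8 libraries outside SL. In Bmp4 replicate 1 was above replicate 2 in both groups. Of 15 BMP and Id genes 12 had a positive difference and 10 were apart and higher, with a median of 0.36 (0.20 without SL deleted replicate 1).

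The most abundant gene to fall belonged to glycolysis. Ldha, which makes lactate from pyruvate, fell from 769 and 786 FPKM in floxed to 547 and 585 FPKM in deleted libraries (log2 difference -0.46, SE 0.08). Pgm2, listed as the phosphoglucomutase gene Pgm1 in GENCODE M21, fell from 36.4 and 41.6 FPKM to 20.2 and 24.9 FPKM. Ndufa4l2, a hypoxia-induced protein of the mitochondrial respiratory chain, showed the largest fall of all called genes, from 24.5 and 27.8 FPKM to 7.57 and 9.62 FPKM (log2 difference -1.51, SE 0.15). Gpi1, the isomerase of the pathway and named after its values were seen, fell from 511 and 543 FPKM to 359 and 383 FPKM. Of 27 tested glycolysis and hypoxia genes 24 had a negative difference and 12 were apart and lower, with a median of -0.32. The median was -0.15 without SL deleted replicate 1 and -0.17 without SL floxed replicate 2. Pgk1 measured 412 and 455 FPKM in deleted against 535 and 569.9 FPKM in floxed libraries and was not called. All 14 tested respiratory chain genes had a negative difference, 10 of them apart, at a median of -0.13 with 0 called. Without SL floxed replicate 1 that median was -0.04.

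The other falls came from separate families. Calca, which encodes calcitonin and its related peptide, fell from 19.3 and 22.2 FPKM to 7.27 and 10.1 FPKM. A2m, a protease inhibitor, fell from 6.02 and 5.73 FPKM to 2.36 and 3.05 FPKM, and the axonemal dynein gene Dnah8 from 5.3 and 5.55 FPKM to 2.83 and 2.79 FPKM. Mdk, the growth factor midkine, fell from 158 and 187.5 FPKM to 89.2 and 116 FPKM. Chchd10, a mitochondrial protein, fell from 265 and 289 FPKM to 171 and 177 FPKM. The kinase gene Pim2 fell from 130.1 and 129 FPKM to 77.7 and 95.1 FPKM. Enpp2, which encodes the secreted enzyme autotaxin, the hexosamine pathway gene Gfpt2 and Gpc3, a cell surface glypican, also fell.

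The feeder cells were examined next, since their RNA could enter as a rise. All 30 tested genes of a 35-gene fibroblast list had a positive difference, and 24 were apart and higher. In 2 of the 30, Ccl2 and Vcam1, the floxed mean was under 1 FPKM, so these entered the test through the deleted group alone. The median was 0.51 (0.38 to 0.59 when each library was left out in turn), and the highest of the tested members was 0.82, in the cadherin gene Cdh11. Summed over the list, the deleted libraries held 1128 and 965 FPKM and the floxed ones 708 and 749 FPKM. The same sum was 271 to 325 FPKM in the 4 feeder-free libraries and 543 to 626 FPKM in 2i, where the labels name no feeders. Part of the sum was thus present without feeders, and it is not a measure of feeder RNA alone. Of the list, 6 genes rose, among them Bgn, a matrix proteoglycan, at 132 and 117 against 68.5 and 80.7 FPKM, and Col1a2, a chain of type I collagen, at 47.7 and 50.8 against 27.1 and 36 FPKM. Defining genes Lum and Fap stayed at or below 0.236 FPKM in every SL library. Dcn, a matrix proteoglycan gene below the FPKM minimum and so not tested, measured 0.606 and 0.407 after deletion against 0.23 and 0.145 FPKM. Y-linked genes, listed at 0 in every feeder-free library, were likewise apart and higher: Eif2s3y measured 1.14 and 0.931 against 0.578 and 0.637 FPKM, Ddx3y 0.444 and 0.499 against 0.324 and 0.285 FPKM, and Kdm5d 0.123 and 0.104 against 0.0446 and 0.0527 FPKM. In bulk RNA, more cells of a type and more RNA per cell cannot be told apart.

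At least 1 FPKM was reached in a feeder-free library by 59 of the 76 genes that rose (77.6%) and by 18 of the 19 that fell (94.7%), beside 11495 of the 12024 genes tested (95.6%). Tfap2c reached 29.7 FPKM there, Rhox6 23.5 FPKM, Folr1 72.8 FPKM and Htra1 38.4 FPKM. Other genes that rose did not reach 1 FPKM there: the highest feeder-free value was 0.0793 FPKM for Gcm1, 0.0887 FPKM for Fgf5, 0.231 FPKM for Olig3, 0.341 FPKM for Hand1 and 0.385 FPKM for Nrk. Prrx1, a mesenchyme homeobox gene, rose from 3.56 and 3.44 FPKM to 7.92 and 6.39 FPKM and had a feeder-free maximum of 0.0539 FPKM.

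A set of genes low outside SL was chosen after the data were seen. The 169 tested genes that stayed under 0.5 FPKM in all 8 libraries outside SL had a median difference of 0.29, with 9 called higher (5.33%) and 1 lower. Restricted to the 108 of them at 1 FPKM in both SL groups, the median was 0.20. Among the 9 called higher were Fgf5, Prrx1 and Cdh11. The rest of the 9, Gcm1, Hand1, Olig3, Il17re, Pappa and F5, had a floxed mean under 1 FPKM. They entered the test through the deleted group alone, so the 5.33% leans toward rises by the way genes were admitted. Without the 169 genes, 67 rises and 18 falls were left. The part of feeder RNA in the rises of genes low outside SL was not tested.

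**Figure D3:**
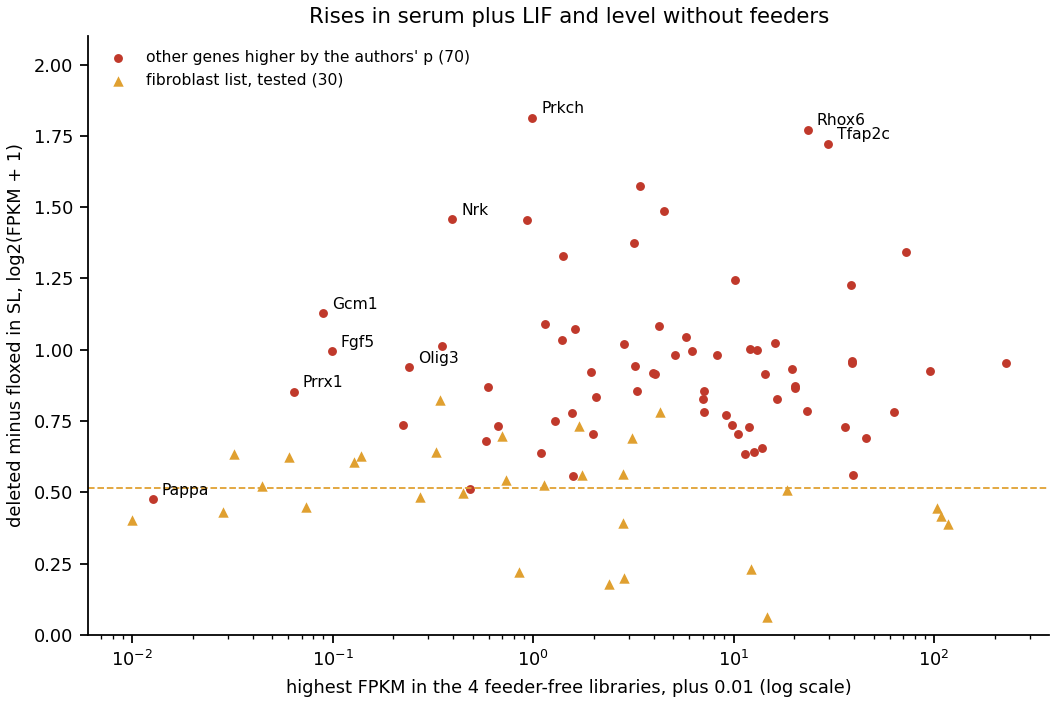
Difference between deleted and floxed libraries in SL on the log2(FPKM + 1) scale (vertical) against the highest FPKM in the 4 feeder-free libraries, plus 0.01 (horizontal, log scale). Red circles are the 70 genes that rose and are not in the fibroblast list, orange triangles its 30 tested genes, and the dashed line their median of 0.51. Of the 76 genes that rose, 59 reached 1 FPKM in a feeder-free library, while Gcm1, Fgf5, Olig3 and Prrx1 lie to the left of it.

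Core genes of the pluripotent network changed little, while naive genes leaned higher and formative and primed genes lower. Of 15 core pluripotency genes 0 were called and the median was -0.06, with Pou5f1, the central factor of the network, at 551 and 480 against 581 and 510.3 FPKM and overlapping. That median was 0.04 without SL floxed replicate 1 and -0.18 without SL floxed replicate 2. Of 22 naive pluripotency genes 18 had a positive difference, 7 were apart and higher and 0 were called, with a median of 0.17. That median was 0.05 without SL deleted replicate 1, 0.06 without SL floxed replicate 2 and 0.43 without SL deleted replicate 2. Nanog measured 147 and 123 against 108 and 109 FPKM, and Tbx3, a T-box factor of the naive state, 16.6 and 9.6 against 4.9 and 3.4 FPKM. Both were apart and higher with no call. In the formative and primed epiblast list 15 of 20 had a negative difference and 10 were apart and lower, with a median of -0.28 (-0.17 without SL deleted replicate 1). These counts include the deleted gene Foxd3 itself, the lowest member of the list at -1.06. Its single call, Fgf5, was higher, and that gene stayed under 0.5 FPKM in every library outside SL. Dnmt3b, the de novo DNA methyltransferase of the epiblast, measured 109 and 128 against 149 and 193 FPKM, and Otx2, a homeobox factor of the formative state, 26.4 and 38.9 against 24.9 and 23.1 FPKM.

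Genes of the 2-cell-like state, which a small share of stem cells expresses at a time, had the highest list median. All 9 tested of 20 written had a positive difference and 8 were apart and higher, with a median of 0.90 and 0 called. In 4 of the 9 the floxed mean was under 1 FPKM. Zscan4c, a zinc finger gene that marks the state, measured 6.78 and 4.06 against 2.07 and 1.64 FPKM, and Tcstv3 3.74 and 2.1 against 0.481 and 0.745 FPKM. Such genes exist as near-identical copies, so these levels are uncertain, and the fibroblast sum and Y-linked values above come from these same libraries.

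Cofactors through which Foxd3 is known to act stayed near the median of all genes. Among 18 LSD1 and NuRD genes 0 were called and the median was -0.03. In each direction 2 were apart, beside 19.7% higher and 17.3% lower over all genes tested. Kdm1a, which encodes LSD1, measured 103 and 108 against 101 and 114 FPKM. The 17 Polycomb genes had a median of 0.04 and 0 calls. Of the 13 DNA methylation and TET genes 4 were apart in each direction with 0 called. Dnmt3l, a cofactor of the de novo enzymes, measured 116 and 98.9 against 80.3 and 68 FPKM, the opposite direction to Dnmt3b.

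**Figure D4:**
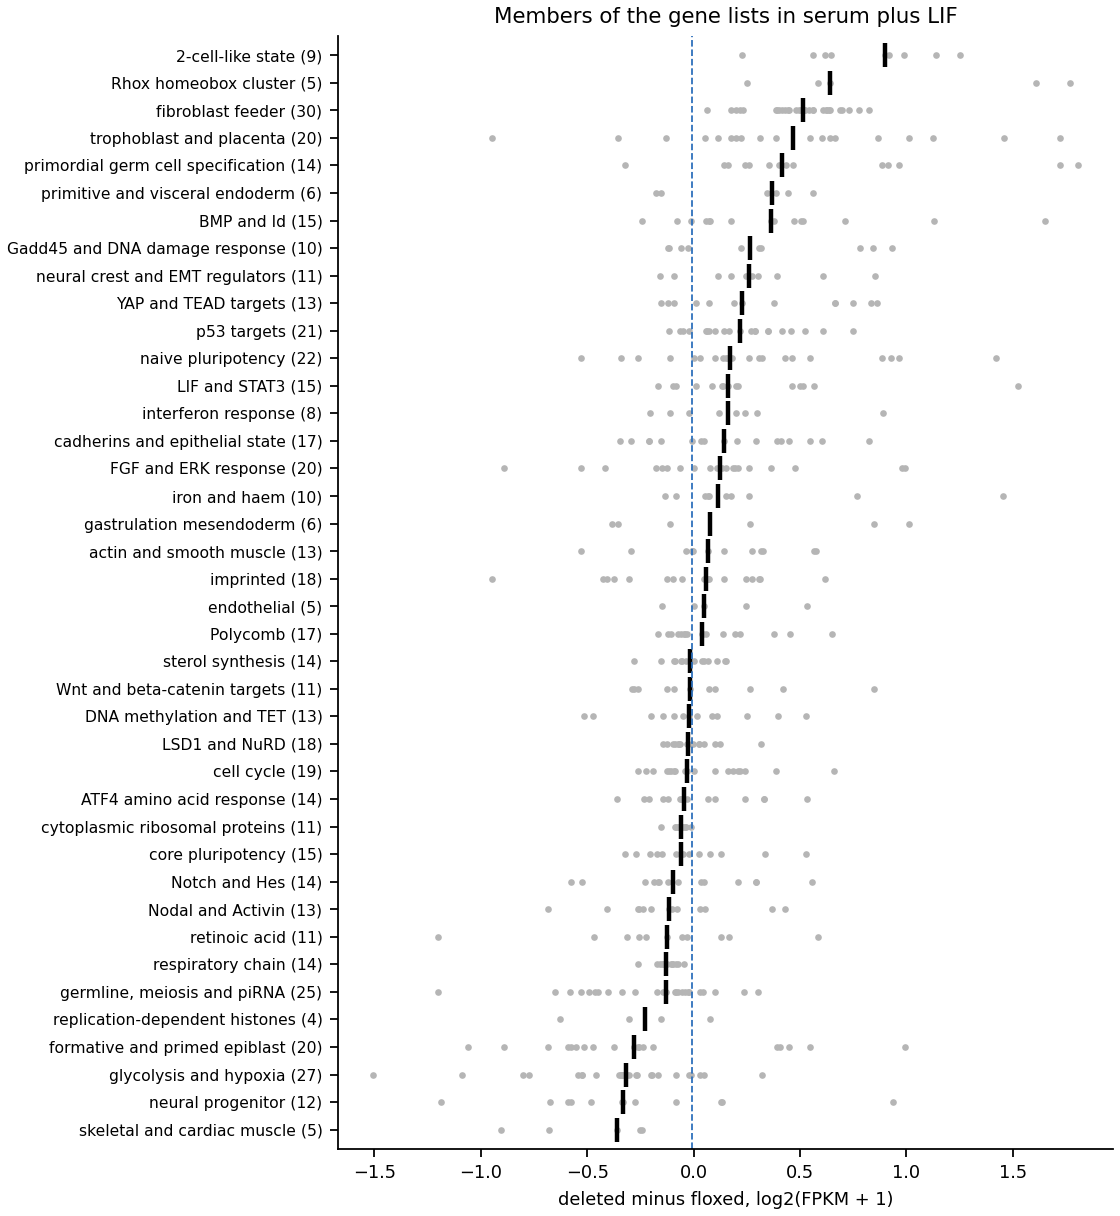
Difference between deleted and floxed libraries on the log2(FPKM + 1) scale (horizontal) for the tested members of each gene list with at least 3 of them (vertical, number of members in parentheses). Grey points are genes, black bars list medians, the dashed line the median of all genes tested, -0.01, and Peg10 lies outside the axis and is not drawn. The 2-cell-like, Rhox and fibroblast lists have the highest medians, from 0.90 to 0.51. The trophoblast list is at 0.47, or 0.39 without Peg10, which is below the primordial germ cell list at 0.42. In 4 of the 9 genes of the 2-cell-like list and 6 of the 20 trophoblast genes the floxed mean was under 1 FPKM. The same held for 1 of 5 Rhox, 2 of 30 fibroblast and 1 of 14 primordial germ cell genes. The muscle, neural and glycolysis lists have the lowest medians, from -0.36 to -0.32, with wide spreads within most lists.

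In the tetON Foxd3 line, where Foxd3 measured 53.2 and 50.1 FPKM against 10.6 and 14.1 FPKM in WT, the genes that deletion moved were looked up. By the authors' p adjusted here, which called 2.55% of genes higher and 3.63% lower in that comparison, 14 of the 58 tested SL rises were lower and 0 higher. Rises below the FPKM minimum there were not counted. They include Wisp1 and Prrx1, which the authors' p put higher in tetON Foxd3. Of the 18 tested SL falls 2 were higher and 0 lower. By limma, which called 0.994% higher and 1.65% lower there, 4 of the rises were lower and 1 of the falls was higher. The deletion and overexpression tables share no library. Tfap2c measured 10.7 and 15 FPKM in tetON Foxd3 and 24.2 and 29.7 FPKM in WT, and Htra1 2.13 and 5.07 against 32.1 and 38.4 FPKM. Folr1 measured 15.5 and 42.7 against 71.6 and 72.8 FPKM, with the tetON libraries far from each other, and Sox15 4.76 and 2.88 against 14.3 and 8.57 FPKM. Also lower in tetON Foxd3 and risen in SL were Ddr2, Dysf, Hecw2 and, named after their values were seen, Plekhg5, the connexin gene Gjb5, Rell1, Zc3hav1, Nup62cl, Ppp2r2c and a joined row that begins with Baz1a. The falls that were higher there were Bcl11a, at 1.59 and 1.54 against 0.313 and 0.337 FPKM, and Pim2, at 27.6 and 24.8 against 15.3 and 11.9 FPKM.

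In 2i, Foxd3 measured 2.07 and 2.45 FPKM in the libraries labelled Foxd3-/- and 2.51 and 2.42 FPKM in the floxed ones, so directions there follow the labels only. The authors' p, adjusted here, called 31.2% of genes higher and 32% lower in 2i, so overlaps are read against that background. Of the 56 tested SL rises 42 were higher and 6 lower, and all 17 tested SL falls were lower. By limma, which called 47.9% higher and 19.7% lower, 46 rises were higher and 5 lower, and 16 falls were lower. Tfap2c measured 55.4 and 63.4 against 30.9 and 31.8 FPKM, Nrk 4.17 and 4.9 against 2.72 and 2.8 FPKM and Rhox6 59.5 and 59.3 against 33.7 and 36.9 FPKM. Ndufa4l2 measured 6.04 and 9.11 against 54.7 and 54 FPKM, and Ldha 332 and 380.2 against 669.5 and 623 FPKM. Gcm1, Olig3 and Hand1 did not enter the 2i test, since neither group reached a mean of 1 FPKM there.

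**Figure D5:**
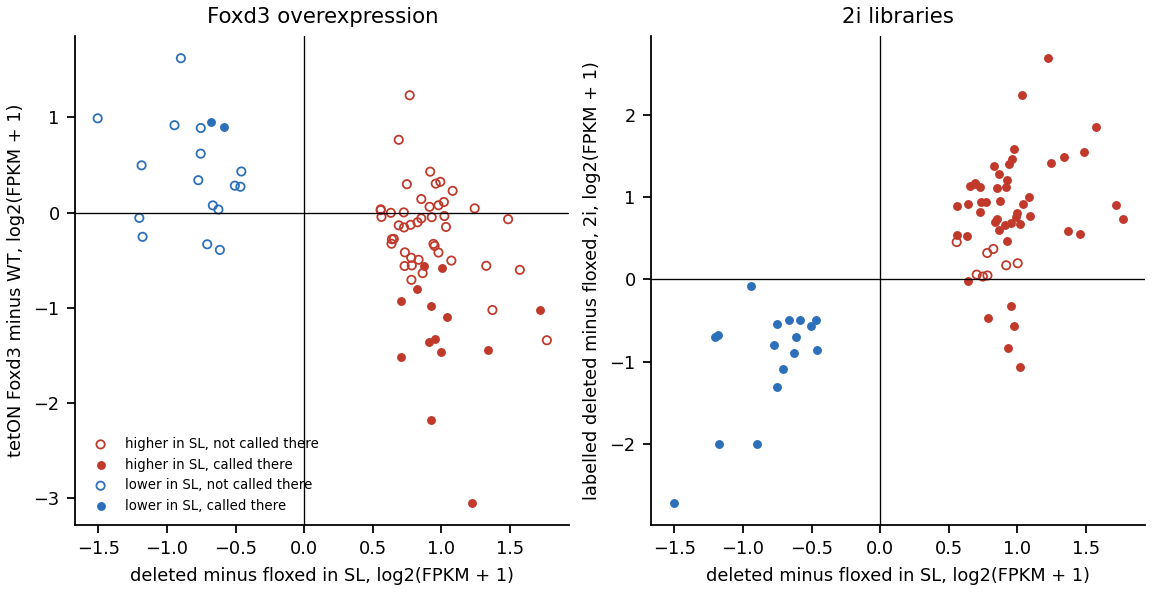
Genes called in SL, with their SL difference (horizontal) and their difference in tetON Foxd3 against WT (left, vertical) or in the 2i libraries by label (right, vertical), all on the log2(FPKM + 1) scale. Red points rose and blue points fell in SL, and filled points were also called by the authors' p in the other comparison. The 14 filled red points on the left all lie below 0 and the 2 filled blue points above it, while on the right 42 filled red points lie above 0 and the 17 filled blue points below it.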

How the data were processed

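RNA was sequenced in 12 libraries, and the 4 in serum plus LIF were tested, with the other 8 set beside them. The submitters' processing notes name TopHat2, Cufflinks, DESeq2, SAMtools and FastQC and, as builds, mm10 and GRCm38, without versions. The authors deposited 1 table per comparison. Per the file headers it holds FPKM for each library, the groups' mean reads (a scaled signal), their signed fold and an unadjusted p-value. The deposited p-values are rounded, so the smallest are listed as 0. The medium of each deletion table was taken from the table's name. No library depth is given, so FPKM precision rests on the 2 libraries of a group.

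Genes with a mean of at least 1 FPKM in a group were tested with limma 3.58.1 (R 4.3.3, intensity trend) on log2(FPKM + 1), a scale that understates changes of low genes, and p-values were adjusted by Benjamini and Hochberg at 0.05. The authors' p-values were adjusted likewise over all 19996 rows as a second set of calls. FPKM is no count, so no count test was run. An FPKM of 0 in both libraries of a group with over 200 of the authors' mean reads counted as a failed estimate. The procedure was tested on simulated data of 12024 genes, where 200 of 200 genes changed by a fold of 2 were recovered with 9 unchanged genes called. The simulated spread was 1 value for all genes, which the real libraries need not share. The changed genes were drawn from the more abundant ones, and the simulated libraries were independent of each other. In the real data, deviations of same-numbered libraries correlated at 0.60, so the simulated recovery need not hold there.

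Symbols are those of the table. GENCODE M21 (GRCm38) held 19547 of the 19996 gene IDs and gave the coordinates, and promoter sequences came from RefSeq (GRCm38.p6). Genes named were Foxd3, the 30 largest deposited rises and 15 largest falls called with no overlap between groups, from each of 42 gene lists the first 4 members and up to 6 with the smallest limma p, and feeder markers. Members and lists were chosen with earlier results of these data known. Alternatives covered pseudocount, filter, scaling, spread, replicate block and leaving out each library.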

Additional observations from a re-analysis of the deposited data

Results flagged for a closer look

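A difference between the media in the direction of 5 genes that rose in SL stands out: both libraries labelled Foxd3-/- in 2i lay below both floxed ones, while in SL both deleted libraries lay above. The 2i differences on the log2(FPKM + 1) scale were -1.07 for Rab3il1, -0.32 for the connexin gene Gjb5, -0.57 for the ERK phosphatase gene Dusp4, -0.84 for the stress gene Gadd45b and -0.47 for the syndecan gene Sdc4. Gadd45b measured 59 and 52.6 FPKM in the 2i libraries labelled deleted and 87.3 and 115 FPKM in the floxed ones. The 5 genes were picked by these values, the difference between media was not tested, and the labels name feeder cells for SL and none for 2i.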

How the results depend on the processing

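The limma count of 1 gene was 185 when all 12 libraries shared 1 spread, 0 without failed estimates (729 up and 367 down before adjustment) and 1 to 313 when each library was left out. Of the 185, 63 were among the 95 calls by the authors' p. With 1 sample left in a group, the lone sample is assumed to vary like the others. The Foxd3 difference was between -1.12 and -1.0002 when each library was left out, and it passed when all 12 libraries shared 1 spread (-1.06, limma adjusted p = 0.0108). Over its alternatives other than the block and leaving out a library, the limma adjusted p ran from 0.0108 to 0.364. At a minimum of 5 FPKM Foxd3 was not tested. The 95 calls were 112 adjusted over the tested genes and 71 at an adjusted p under 0.01. In overexpression, 5 SL calls were opposite by limma and 16 by the authors' p, an alternative chosen after seeing the data, as was leaving out the 169 genes low outside SL (85 calls). Of the list medians, 22 lay above that of all genes, and 24 to 26 when each library was left out. Scaling and pseudocount turned the sign of 0 list medians, and leaving out a library turned 4 to 8. The cause was not tested.

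Replicates share only a number, which the labels tie to no batch. Deviations from the group means correlated at 0.60 for same-numbered libraries. With the replicate block limma called 1997 genes, 1171 higher and 826 lower, among them all 95, and Foxd3 had a limma adjusted p of 1.15e-16 at -1.06. This fit leaves 1 residual degree of freedom and takes 1 spread for all genes, as do the fits without a deleted library, so these p-values are not read as firmer.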
